A study of Mus musculus with 4 samples.

Results

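The mitochondrial ribosomal protein genes Mrpl and Mrps encode, in the nucleus, the protein subunits of the ribosome that works inside mitochondria. They were taken here as every gene of the deposited count table whose symbol starts with Mrpl or Mrps followed by a digit. This gave 77 of 24421 genes, 48 named Mrpl and 29 named Mrps. All 77 passed the filter on low counts and were among the 13296 genes tested. The RNA came from LSK cells, the lineage-negative, Sca1-positive, Kit-positive cells of bone marrow that include the blood stem cells. The mice were aged 13 to 15 months and were either wild type (WT, 2 libraries) or heterozygous for a p53 allele carrying the R248W missense change (p53R248W/+, 2 libraries). The labels name no strain, and they do not say whether the libraries of a genotype came from separate animals or pools, so p-values reflect the spread among these libraries alone, and that spread may be technical.

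The mitochondrial ribosome translates the few messenger RNAs encoded by mitochondrial DNA, all of which specify core subunits of the respiratory chain and the ATP synthase. Its proteins are made in the cytosol and imported, and its RNAs are transcribed in the organelle, so the particle depends on both genomes. Some of its proteins have a counterpart in bacterial ribosomes and others are specific to mitochondria. Blood stem cells are known for low reliance on oxidative respiration at rest and for a rise in mitochondrial translation when they are activated. The transcription factors NRF1, GABPA (an ETS factor) and YY1 are known regulators of nuclear genes for mitochondrial proteins.

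The member genes lay on 17 chromosomes, and motifs of the ETS, NRF1 and YY1 factors were more frequent in their promoters than in those of tested genes at large. RefSeq promoter sequences (GRCm38.p6, the mm10 assembly; 250 bases before to 50 after the start) matched 68 of the 77 by symbol, and Mrpl15, Mrpl54, Mrpl38, Mrpl13, Mrps34, Mrps28, Mrpl19, Mrps35 and Mrpl4 were not matched. The letters CCGGAAG, the core of an ETS site, were found on either strand in 24 promoters, or 35.3%, against 18.3% of the promoters of all tested genes with an entry (10017) and 8.86% of all 32851 promoters in the table. The NRF1 core CGCATGCG was in 7 promoters, or 10.3%, against 3.97% of tested genes and 1.87% of all promoters. The YY1 letters AAGATGGCG were in 8, or 11.8%, against 3.22% and 1.40%. At least 1 of these 3 motifs was in 50% of member promoters and 23.8% of those of tested genes. All 8 NRF1 matches lay before the start, at positions -224 to -10, whereas 6 of the 8 YY1 matches began at or after it. A CCGGAAG match can share its last 3 letters with an AAGATGGCG match. The shares are descriptions without a test, and a match of letters does not show that a factor binds.

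The following windows hold the 120 bases before the transcript start, 5′ to 3′ on the gene's own strand, and are shown because each has a match to 1 of the 3 motifs (in capitals) and holds no exon of another gene. The first 3 have the NRF1 core, which Mrpl32 has at a pair of places, the next 3 have the ETS core (in Mrpl52 on the opposite strand, as CTTCCGG) and the last has the YY1 letters, read on the opposite strand as CGCCATCTT.
Mrpl32 (chr13:14613038-14613157, minus strand): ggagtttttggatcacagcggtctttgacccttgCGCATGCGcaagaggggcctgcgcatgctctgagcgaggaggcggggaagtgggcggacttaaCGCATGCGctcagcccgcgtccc
Mrpl9 (chr3:94443216-94443335, plus strand): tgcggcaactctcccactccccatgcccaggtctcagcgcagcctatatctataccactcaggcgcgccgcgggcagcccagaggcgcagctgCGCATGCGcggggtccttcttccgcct
Mrpl17 (chr7:105811088-105811207, minus strand): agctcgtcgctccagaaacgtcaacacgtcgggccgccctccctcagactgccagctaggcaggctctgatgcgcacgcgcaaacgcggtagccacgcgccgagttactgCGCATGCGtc
Mrpl52 (chr14:54426789-54426908, plus strand): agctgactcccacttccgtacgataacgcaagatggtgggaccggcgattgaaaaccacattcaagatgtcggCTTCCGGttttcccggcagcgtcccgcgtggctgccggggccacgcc
Mrps18a (chr17:46110884-46111003, plus strand): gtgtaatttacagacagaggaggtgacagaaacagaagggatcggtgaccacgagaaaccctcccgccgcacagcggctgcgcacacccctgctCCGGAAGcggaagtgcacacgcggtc
Mrps22 (chr9:98601680-98601799, minus strand): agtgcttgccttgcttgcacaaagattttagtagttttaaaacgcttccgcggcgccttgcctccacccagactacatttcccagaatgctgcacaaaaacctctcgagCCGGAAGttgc
Mrpl36 (chr13:73330889-73331008, plus strand): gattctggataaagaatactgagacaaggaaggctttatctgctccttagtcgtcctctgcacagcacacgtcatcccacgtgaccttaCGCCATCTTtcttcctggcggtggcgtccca

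The other 4 motifs were about as frequent in the members as in tested genes, or less so. CCAAT (NF-Y) was in 39.7% against 38.5%, the E-box CACGTG in 7.35% against 10.3%, GGGCGG (Sp1) in 50% against 63.6% and TATAAA (the TATA box) in 5.88% against 7.18%. The median GC content was 58.2% in the members' windows and 60.7% in those of tested genes. Promoters of the cytosolic ribosomal protein genes held the ETS core in 38.9%, the NRF1 core in 3.70% and the YY1 letters in 5.56%.

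**Figure D1:**
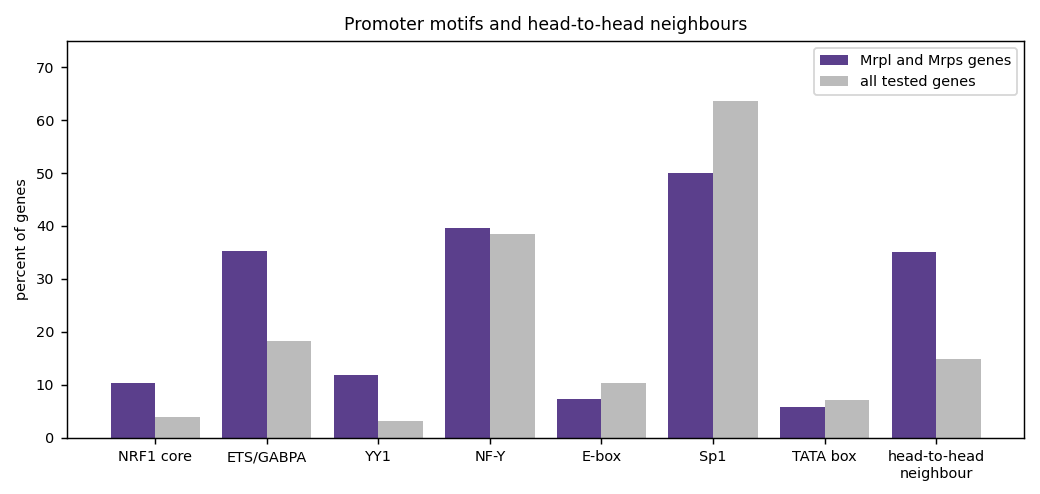
Share of genes (percent, vertical axis) whose promoter window holds each motif, and share with a head-to-head neighbour, for the Mrpl and Mrps genes (purple) and all tested genes (grey). Motif shares are over 68 member and 10017 tested promoters and neighbour shares over 77 and 13296 genes; the members stood at 35.3% against 18.3% for the ETS core and at 35.1% against 14.8% for a neighbour.

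A head-to-head neighbour is a gene on the other strand whose start lies within 1000 bases and points away, with an overlap of up to 200 bases allowed. Such a neighbour was present for 27 members, or 35.1%. The share was 14.8% of all tested genes and 17.6% of 74 cytosolic ribosomal protein genes. The median distance between the paired starts was 137 bases. In a single case both partners were members: Mrpl46, a protein of the central protuberance of the large subunit, and Mrps11, a conserved protein of the small subunit. Their starts lie on chromosome 7 with the bases below between them, shown on the plus strand because both genes are read outward from this stretch (the Sp1 letters are in capitals).
Mrpl46 to Mrps11 (chr7:78783090-78783130, plus strand): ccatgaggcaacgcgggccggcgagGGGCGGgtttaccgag
Mrpl46 was at 13.7 and 12.2 CPM (counts per 1e+06 counts of a library, after TMM scaling) in WT and 18.2 and 8.92 CPM in p53R248W/+. Mrps11 was at 5.93 and 4.49 CPM (WT) and at 3.24 and 5.62 CPM (p53R248W/+). Per kilobase of exon the mean levels were 12.9 and 4.62 RPKM (CPM per kilobase of exon), and for both genes the genotypes overlapped. Of the 26 partners that were tested, 13 had a log2 fold change of the same sign as the member beside it. Mrpl46 and Mrps11, whose signs were opposite, count here from each side.

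The libraries held 12111126 to 14820759 counts. Kit was at 911 and 998 CPM (WT) and at 1182 and 1105 CPM (p53R248W/+), and Ly6a, which encodes Sca1, at 40.2 to 82.9 CPM. Of the markers of other cells, the hemoglobin genes Hbb-bt and Hba-a1 were at 0 counts in all 4 libraries. The treatment of multi-mapping reads is not given, so 0 counts for a gene with near-identical copies need not mean absent RNA. The 3 stroma and endothelium markers summed to 0 and 0.14 CPM (WT) and to 1.89 and 0.083 CPM (p53R248W/+), with Cxcl12 at 0 throughout. The 4 B cell markers summed to 6.28 and 9.89 CPM in the WT libraries against 25.4 and 14.6 CPM in the mutants. The 4 T and NK cell markers summed to 13.0 to 33.3 CPM, the 4 erythroid markers to 7.15 to 13.4 CPM and the 4 matched granulocyte and monocyte markers to 82.0 to 171 CPM. The part of these cells in the results below was not tested, and in bulk RNA a change in the number of cells of a type and a change in RNA per cell cannot be told apart.

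Member transcripts were of low to middling abundance in LSK cells. They took 0.138% to 0.151% of all counts, between 16724 and 22367 reads per library. The median member was at 10.8 RPKM, close to the 10.02 RPKM of the median tested gene. The median over the 74 tested cytosolic ribosomal protein genes was 391 RPKM, 36.3 times as high, and that over 79 tested nuclear genes of oxidative phosphorylation was 28.2 RPKM, 2.62 times as high. By name, the medians were 10.8 RPKM for Mrpl and 10.7 RPKM for Mrps genes.

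Mean levels of the highest and the lowest member differed by 19.7 times. Between 5 and 20 RPKM lay 54 of the 77 members. The highest was Mrpl52, a mitochondrion-specific large subunit protein, at a mean of 52.6 RPKM, followed by Mrpl42 at 50, Mrpl33 at 44.8, Mrpl30 at 43.9 and Mrpl36 at 39.2 RPKM. Mrpl33, Mrpl30 and Mrpl36 have bacterial counterparts, and Mrpl33 and Mrpl36 are among the shortest ribosomal proteins. The library ranges of neighbours in this order overlapped, at 37.1 to 65.3 RPKM for Mrpl52 and 26.5 to 58.0 RPKM for Mrpl33. The lowest were Mrps34 at 2.67, Mrpl41 at 3.67, Mrps18b at 3.82, Mrps25 at 4.36 and Mrps11 at 4.62 RPKM, and the ranges of these 5 also overlapped. None of the 5 highest in RPKM was among the 5 highest in CPM without length scaling, which were Mrpl39, Mrpl17, Mrps2, Mrpl3 and Mrpl19. Exon lengths in the table ran from 407 to 6712 bases. Mrps25, with 6065 bases, was among the lowest in RPKM only, since its mean of 26.4 CPM was above the 15.8 CPM of the median member. Mrps25 and Mrpl41 share 58.3% and 41.4% of their exon length with a gene on the other strand. The strand setting of the counts is not given, so the ranks of both are uncertain.

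**Figure D2:**
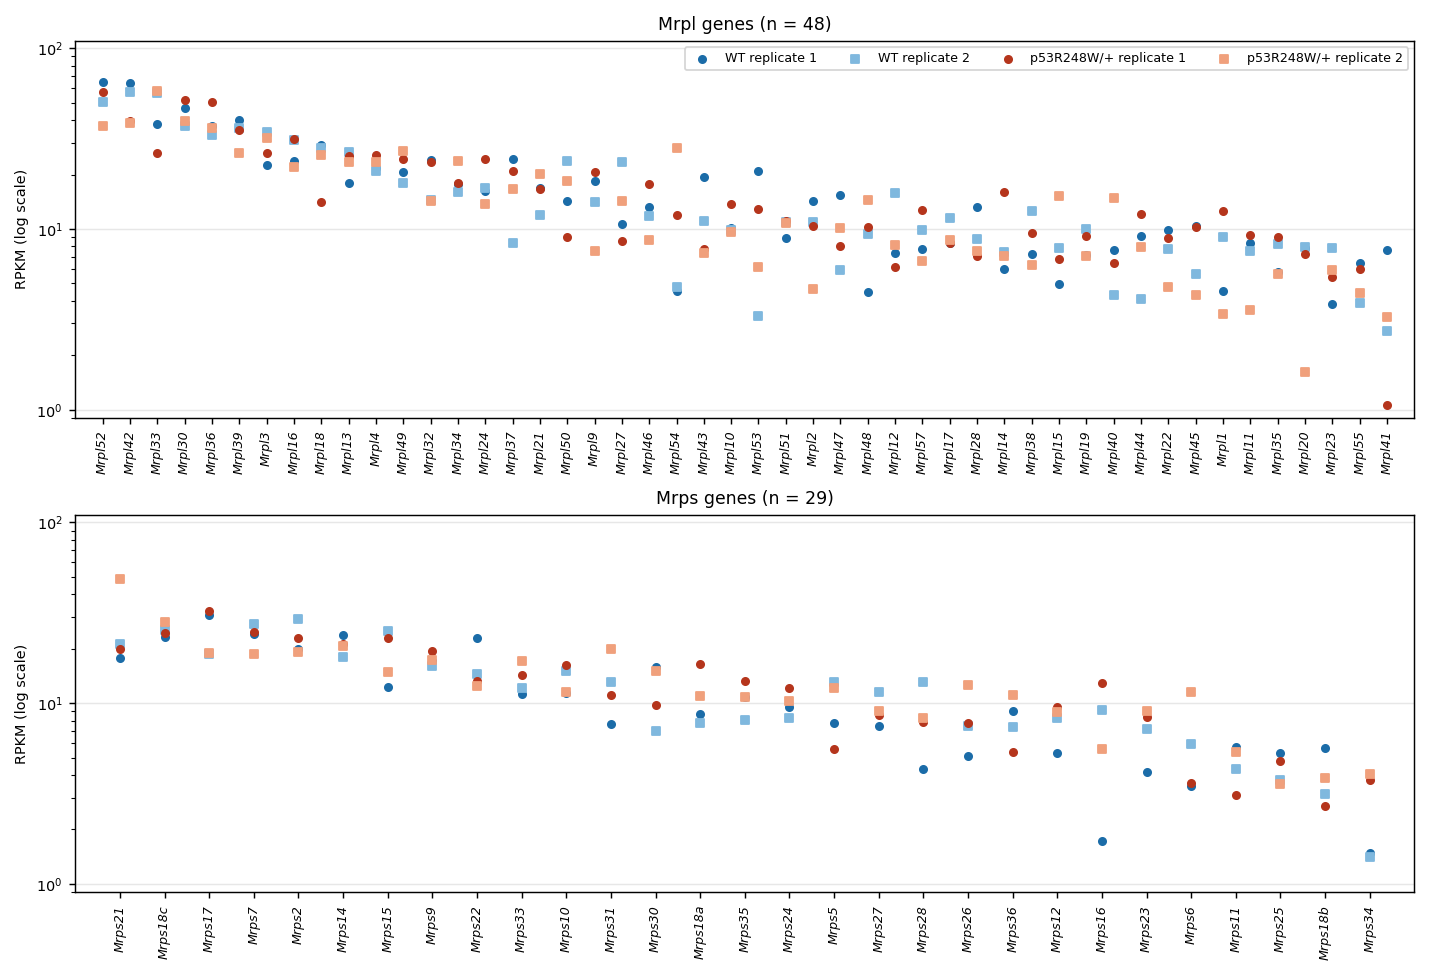
Level of each of the 48 Mrpl and 29 Mrps genes in each library, in RPKM on a log axis, ordered by mean level; circles are replicates 1 and squares replicates 2, blue for WT and red or orange for p53R248W/+. Most genes lie between 5 and 20 RPKM, and the colours mix along most of the order.

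The paralogs Mrps18a, Mrps18b and Mrps18c, which descend from 1 bacterial protein and sit at different places in the particle, differed in RPKM. Mrps18c, the counterpart in the small subunit, had a mean of 25.3 RPKM, with 11.6 and 12.7 CPM (WT) and 12.3 and 14.0 CPM (p53R248W/+). Mrps18a, a large subunit protein in spite of its name, had a mean of 11 RPKM, and Mrps18b of 3.82 RPKM. Over the 4 libraries Mrps18c ran from 23.2 to 28.0, Mrps18a from 7.79 to 16.5 and Mrps18b from 2.69 to 5.63 RPKM. The ranges of the 3 paralogs therefore did not overlap in RPKM. Without length scaling, Mrps18a (6.73 to 14.2 CPM) and Mrps18c (11.6 to 14.0 CPM) did overlap. Their separation thus rests on the exon lengths of 864 and 502 bases.

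The comparison of the genotypes asks how these transcripts compare between cells with and without the mutant p53 allele. No member passed an adjusted p of 0.05 in edgeR's quasi-likelihood test, as no gene did over the whole table (0% of tested genes called). DESeq2 called 6 genes over the table and limma-voom 0, none of them members in either, and 780 genes had an unadjusted p under 0.05 in edgeR. At an unadjusted p under 0.05 there was 1 member among those higher in p53R248W/+, where 3.01% of all tested genes were, and 0 members among those lower, where 2.86% were. The smallest adjusted p of a member was 0.824, and under the alternatives the smallest ran from 0.629 to 0.999. Fold changes are given below as log2 values of p53R248W/+ over WT with their standard error (SE) and n of 2 libraries per genotype.

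Over the 77 members the median log2 fold change was 0.05, with quartiles at -0.26 and 0.34, and the median of all tested genes was -8.81e-05. Negative values were found for 34 members, or 44.2%, where 50% of all tested genes had one. Without p53R248W/+ replicate 1 the number was 42 and the median -0.071, and the median of all genes tested in that fit was -0.040. Both p53R248W/+ libraries were above both WT libraries for 13 members, or 16.9%, and 16.9% of tested genes showed the same. Both were below for 8 members, or 10.4%, against 16.6%. Absolute log2 fold changes over 1 were found for 4 members, or 5.19%, against 14.7% of tested genes. The 95% interval lay within -1 and 1 for 8 members and reached past 1 in size for the other 69, so a 2-fold difference lay within the interval for most of them.

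**Figure D3:**
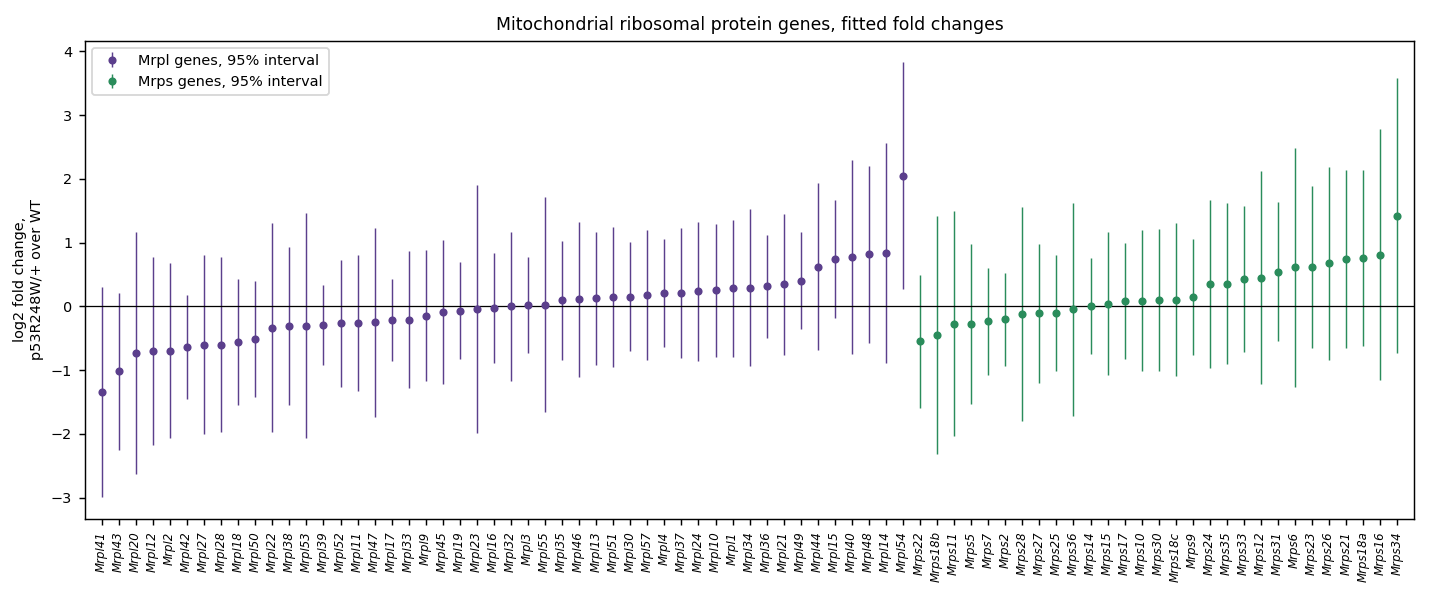
Fitted log2 fold change of p53R248W/+ over WT for each member (points), with its 95% interval (bars), Mrpl genes in purple and Mrps genes in green, each ordered by value. A single interval, that of Mrpl54, lies wholly to the side of 0, and no gene passed after adjustment.

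At the median over the members, single replicates of a genotype differed more than the genotype means did, as they did over all tested genes. A mean of 2 libraries varies less than a single library, so this order arises also without a genotype difference. The median absolute difference between the replicates of a genotype, on the scale of log2(CPM + 0.5), was 0.50 in WT and 0.50 in p53R248W/+, against 0.43 and 0.42 over all tested genes. Between the genotype means it was 0.30 for the members and 0.30 for all tested genes. The genotype difference was larger than both replicate differences for 9 members, or 11.7%, against 21.6% of tested genes. The lowest member count in a library was 13 reads, and 27 members had under 100 reads in at least 1 library.

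**Figure D4:**
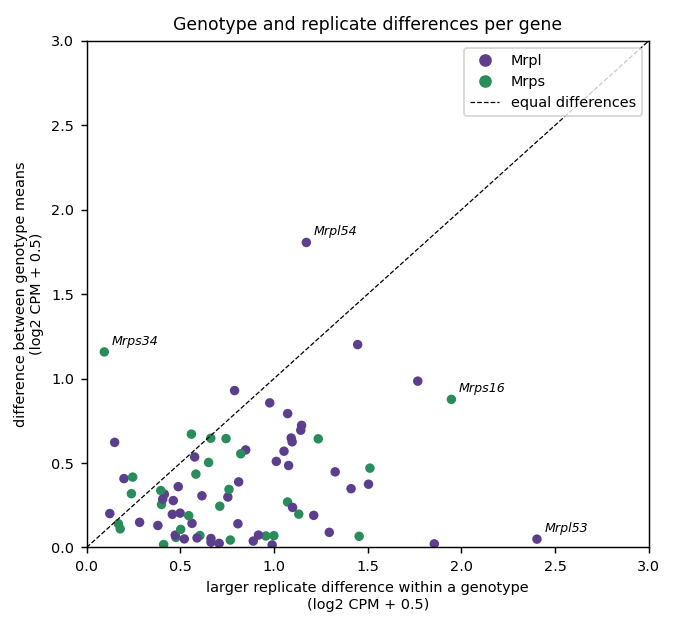
Absolute difference between the genotype means (vertical axis) against the larger of the 2 replicate differences (horizontal axis) for each member, both on the log2(CPM + 0.5) scale, Mrpl in purple and Mrps in green. Points above the dashed line of equality are the 9 members whose genotype difference was larger than both replicate differences, and Mrpl53 lies far to the right with replicates that differed most. The vertical axis compares means of 2 libraries and the horizontal axis single libraries, so points tend to lie below the line also without a genotype difference.

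Among members with a mean of at least 5 CPM, the replicates that differed most were those of Mrpl53, Mrpl1 and Mrpl37. Mrpl53, a mitochondrion-specific protein near the stalk of the large subunit, was at 12.9 and 2.03 CPM in the WT libraries against 7.96 and 3.8 CPM in the mutants. Its log2 fold change of -0.30 ± 0.84 (SE) became 1.57 with WT replicate 1 left out, 0.09 with p53R248W/+ replicate 2 left out and 0.15 in limma-voom. Mrpl1, a conserved protein of the large subunit, was at 19.1 and 37.8 CPM (WT) and at 52.4 and 14.1 CPM (p53R248W/+), so that the mutant libraries stood on either side of WT. Its value of 0.28 ± 0.51 (SE) turned to -0.13 with WT replicate 1 left out and -1.01 without p53R248W/+ replicate 1. Mrpl37 was at 36.3 and 12.5 CPM in the WT libraries against 31.3 and 24.8 CPM in the mutants, and its value of 0.21 ± 0.49 (SE) turned to -0.36 without WT replicate 2.

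Among the Mrpl genes, 24 of 48 had a negative and 24 a positive log2 fold change, with a median of -0.01. The libraries did not give this median alike: it was -0.23 with p53R248W/+ replicate 1 left out and 0.13 without p53R248W/+ replicate 2. Of the 48 Mrpl genes, 20 had their lowest CPM in p53R248W/+ replicate 2, 12 in WT replicate 2, 9 in WT replicate 1 and 7 in p53R248W/+ replicate 1. For the 29 Mrps genes these numbers were 4, 8, 13 and 4. The library p53R248W/+ replicate 2 also had the fewest counts (12111126), and the share over all tested genes is not given here. The summed Mrpl level was 993 and 1012 CPM (WT) and 1044 and 920 CPM (p53R248W/+), so the mutant libraries lay on both sides of WT.

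Mrpl54, a large subunit protein without a bacterial counterpart (chromosome 10, 81264722 to 81266926, minus strand, 3 exon blocks), was the member with the smallest p. It was at 2.65 and 2.81 CPM in the WT libraries against 7.01 and 16.4 CPM in the mutants, from 38 and 40 reads against 104 and 199. Both mutant libraries were above WT, and they differed from each other by more than the WT libraries did. Its log2 fold change was 2.05 ± 0.845 (SE; 95% interval 0.27 to 3.83), which missed the threshold (edgeR quasi-likelihood, adjusted p = 0.824). The value was 1.36 with p53R248W/+ replicate 2 left out and 2.59 without p53R248W/+ replicate 1.

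Mrpl48, part of the central protuberance (chromosome 7, 100549117 to 100607996), was at 4.74 and 9.82 CPM (WT) and at 10.8 and 15.2 CPM (p53R248W/+). The genotypes differed by 0.81 ± 0.66 (SE) on the log2 scale, or by 0.385 with WT replicate 1 left out and 1.44 without WT replicate 2. Mrpl49, another mitochondrion-specific protein (chromosome 19, 6053630 to 6057751), was at 35.4 and 30.8 CPM in the WT libraries against 41.8 and 46.3 CPM in the mutants, or 0.41 ± 0.36 (SE). The WT and mutant libraries were separate for both genes, by less than 1 CPM for Mrpl48. Mrpl48 shares 106 exon bases with Rab6a and Mrpl49 shares 89 with Syvn1, each on the opposite strand.

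Mrpl43 (chromosome 19, 45005014 to 45006442), a mitochondrion-specific large subunit protein, lay in the other direction. It was at 23.6 and 13.5 CPM (WT) and at 9.38 and 8.92 CPM (p53R248W/+), with close mutant replicates and distant WT replicates. Its log2 fold change was -1.02 ± 0.59 (SE), and -0.55 without WT replicate 1. Its head-to-head neighbour Peo1, which encodes the mitochondrial DNA helicase Twinkle, had a value of 0.83 ± 0.43 (SE), with starts 116 bases apart.

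Mrpl42 (chromosome 10, 95480806 to 95501927) was at 42.6 and 38.4 CPM in the WT libraries against 26.5 and 25.7 CPM in the mutants. The replicates of each genotype were close and the genotypes did not overlap, and the log2 fold change was -0.63 ± 0.39 (SE), from -0.70 to -0.55 with each library left out. Mrpl18, a conserved protein of the central protuberance, was at 28.0 and 27.0 CPM (WT) and at 13.5 and 24.7 CPM (p53R248W/+). Its value of -0.56 ± 0.47 (SE) was -0.16 with p53R248W/+ replicate 1 left out and -1.03 without p53R248W/+ replicate 2.

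Mrpl2, the counterpart of the bacterial protein next to the peptidyl transferase centre, was at 14.4 and 11 CPM in the WT libraries against 10.5 and 4.71 CPM in the mutants. The gap between the genotypes was under 1 CPM, and the difference of -0.69 ± 0.65 (SE) on the log2 scale became -1.43 with p53R248W/+ replicate 1 left out and -0.28 without p53R248W/+ replicate 2. Mrpl39 was at 74.3 and 66.8 CPM (WT) and at 65.4 and 48.9 CPM (p53R248W/+). Its value of -0.29 ± 0.30 (SE) was -0.53 with p53R248W/+ replicate 1 left out and -0.11 without p53R248W/+ replicate 2. None of these genes passed after adjustment.

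Mrpl41, a mitochondrion-specific protein that has also been described as a binding partner of p53 and of Bcl2 (chromosome 2, 24972470 to 24975098), had the lowest log2 fold change of any member. It was at 18.6 and 6.59 CPM in the WT libraries against 2.56 and 7.85 CPM in the mutants, so the second library of each genotype stood close together and the genotypes overlapped. The log2 fold change was -1.34 ± 0.78 (SE), -0.41 with WT replicate 1 left out, -0.68 with p53R248W/+ replicate 1 left out and -2.29 without p53R248W/+ replicate 2. Of its exon length 41.4% is shared with Dph7 on the other strand. The sources used here do not say whether reads were counted by strand, so in the shared stretch its reads cannot be told from those of Dph7.

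The genes with the highest levels, apart from Mrpl42, differed less between genotypes than between replicates or had overlapping genotypes. Mrpl52 was at 26.9 and 20.8 CPM (WT) and at 23.7 and 15.3 CPM (p53R248W/+) (-0.27 ± 0.47, SE), and its value ran from -0.64 to -0.01 with single libraries left out. Mrpl36 was at 33.6 and 29.8 CPM in the WT libraries against 45.3 and 32.7 CPM in the mutants (0.31 ± 0.38, SE), and was 0.04 with p53R248W/+ replicate 1 left out and 0.51 without p53R248W/+ replicate 2. Mrpl30 was at 32.2 and 25.6 CPM (WT) and at 35.9 and 27.5 CPM (p53R248W/+) (0.15 ± 0.41, SE), and was -0.07 without p53R248W/+ replicate 1. Mrpl33 was at 17.7 and 26.4 CPM in the WT libraries against 12.3 and 27.0 CPM in the mutants (-0.21 ± 0.51, SE), and turned to 0.12 with WT replicate 2 left out and 0.29 without p53R248W/+ replicate 1. All 4 genes had overlapping genotypes.

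By position in the large subunit, the stalk proteins, which recruit translation factors, had a median log2 fold change of -0.28 over 4 genes (Mrpl10, Mrpl11, Mrpl12 and Mrpl53), which turned to 0.04 with WT replicate 1 left out and 0.15 without p53R248W/+ replicate 2. Mrpl12, a stalk protein also known to bind the mitochondrial RNA polymerase, was at 6.97 and 15.0 CPM (WT) and at 5.87 and 7.76 CPM (p53R248W/+). The 6 genes of the central protuberance had a median of -0.10, which turned to 0.11 with WT replicate 2 left out and 0.02 without p53R248W/+ replicate 2. The 6 genes around the exit of the nascent chain had a median of -0.15, which turned to 0.03 without WT replicate 1. Those 6 include Mrpl45, which tethers the ribosome to the inner membrane and was at 25.2 and 13.7 CPM in the WT libraries against 25 and 10.5 CPM in the mutants. Large subunit proteins with a bacterial counterpart (30 genes) had a median of -0.01, from -0.21 without p53R248W/+ replicate 1 to 0.13 without p53R248W/+ replicate 2. Those classed as mitochondrion-specific (19 genes, Mrps30 among them) had a median of 0.10. Mrps18a was placed in this class although it descends from a bacterial protein. The latter median was 0.38 with WT replicate 1 left out, -0.09 with WT replicate 2 left out and -0.05 without p53R248W/+ replicate 1.

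Among the Mrps genes, 19 of 29 had a positive log2 fold change and 10 a negative, with a median of 0.10. Both mutant libraries were above both WT libraries for 8 of them and below for 1, where 16.9% and 16.6% of all tested genes were. The median stayed positive with each library left out, at 0.08 to 0.24, while that of all genes tested in those fits ran from -0.041 to 0.056. The Mrps medians of log2(CPM + 0.5) by library were 3.59 and 3.62 in WT and 3.87 and 3.86 in p53R248W/+. The summed Mrps level was 429 and 446 CPM (WT) and 464 and 461 CPM (p53R248W/+), so both mutant libraries were above both WT libraries. Whether the Mrps and the Mrpl genes differ in their change was not tested. No Mrps gene had an unadjusted p under 0.05.

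Mrps34, a mitochondrion-specific small subunit protein (chromosome 17, 24895120 to 24896273), had the highest value of the Mrps genes. It was at 1.33 and 1.26 CPM in the WT libraries against 3.37 and 3.63 CPM in the mutants, from 19 and 18 reads against 50 and 44. The replicates of each genotype were close and the genotypes were separate, with a log2 fold change of 1.43 ± 1.03 (SE; 95% interval -0.735 to 3.59; edgeR quasi-likelihood, adjusted p = 0.865). The value ran from 1.37 to 1.48 with each library left out. Eme2, a subunit of a DNA repair nuclease whose start lies 33 bases from that of Mrps34 on the other strand, was at 3.07 and 18.03 CPM (WT) and at 53.8 and 10.9 CPM (p53R248W/+). Its genotypes overlapped and 1 mutant library stood above the rest, and its value was 1.68 ± 0.72 (SE), which did not pass either (edgeR quasi-likelihood, adjusted p = 0.824).

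Mrps18a was at 7.53 and 6.73 CPM (WT) and at 14.2 and 9.50 CPM (p53R248W/+). The genotypes differed by 0.76 ± 0.655 (SE) on the log2 scale, or by 0.41 without p53R248W/+ replicate 1. Mrps23 was at 6.83 and 11.8 CPM in the WT libraries against 13.8 and 14.9 CPM in the mutants (0.62 ± 0.60, SE), and was 0.28 with WT replicate 1 left out and 1.07 without WT replicate 2. Mrps26 was at 4.88 and 7.15 CPM (WT) and at 7.49 and 12.1 CPM (p53R248W/+) (0.67 ± 0.72, SE), and was 0.43 with WT replicate 1 left out and 0.31 without p53R248W/+ replicate 2. For these 3 genes both mutant libraries lay above both WT libraries, for Mrps26 by under 1 CPM.

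Mrps22, a mitochondrion-specific small subunit protein (chromosome 9, 98588730 to 98601679), was the Mrps gene with both mutant libraries below WT. It was at 28.0 and 17.7 CPM in the WT libraries against 16.1 and 15.0 CPM in the mutants, and the difference of -0.55 ± 0.50 (SE) on the log2 scale became -0.18 with WT replicate 1 left out and -0.84 without WT replicate 2. Among the lowest in RPKM, Mrps18b was at 5.93 and 3.30 CPM (WT) and at 2.83 and 4.05 CPM (p53R248W/+) (-0.45 ± 0.89, SE), and turned to 0.04 without WT replicate 1. Mrps25 was at 32.3 and 22.7 CPM in the WT libraries against 29.1 and 21.6 CPM in the mutants (-0.10 ± 0.43, SE), turned to 0.18 with WT replicate 1 left out and 0.08 without p53R248W/+ replicate 2, and shares 58.3% of its exon length with Nr2c2 on the other strand. Mrps11 had a value of -0.27 ± 0.84 (SE), or 0.11 without p53R248W/+ replicate 1, and Mrps18c of 0.11 ± 0.57 (SE), from 0.02 to 0.21 with single libraries left out.

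Small subunit proteins with a bacterial counterpart had a median log2 fold change of 0.08 over 16 genes, from 0.02 without p53R248W/+ replicate 2 to 0.22 without WT replicate 2. Those classed as mitochondrion-specific had 0.39 over 10 genes. The latter median was 0.20 to 0.37 with each library left out. Mrps12, which sits at the decoding centre, was at 3.63 and 5.68 CPM (WT) and at 6.54 and 6.11 CPM (p53R248W/+). Its value was 0.45 ± 0.79 (SE), or 0.16 with WT replicate 1 left out and 0.81 without WT replicate 2. The gene named Mrps36, which encodes a protein since assigned to the 2-oxoglutarate dehydrogenase complex, was at 6.49 and 5.26 CPM in the WT libraries against 3.84 and 7.93 CPM in the mutants. It and Mrpl57 are in neither class above.

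The other nuclear genes of mitochondrial translation likewise held no gene that passed. Of the 6 mitoribosome proteins that carry other names, 5 had a positive value, with a median of 0.20, or 0.08 without WT replicate 2. Ict1, a peptidyl-tRNA hydrolase built into the large subunit, was at 3.70 and 1.96 CPM (WT) and at 15.9 and 9.83 CPM (p53R248W/+), a log2 fold change of 2.21 ± 0.79 (SE; edgeR quasi-likelihood, adjusted p = 0.824). Chchd1 was at 6.56 and 12.6 CPM in the WT libraries against 26.8 and 13.0 CPM in the mutants (1.10 ± 0.59, SE). Gadd45gip1, a large subunit protein also known as a cofactor in the nucleus, was at 8.44 and 4.98 CPM (WT) and at 2.23 and 3.30 CPM (p53R248W/+) (-1.30 ± 0.88, SE). Dap3 and Ptcd3, small subunit proteins, had values of 0.02 ± 0.37 and 0.04 ± 0.28 (SE).

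Of 26 assembly factors, 14 had a negative and 12 a positive value, with a median of -0.04, which was 0.01 with WT replicate 1 left out and -0.20 without p53R248W/+ replicate 2. Afg3l2, the protease subunit that matures Mrpl32, was at 120 and 105 CPM in the WT libraries against 124 and 112 CPM in the mutants (0.08 ± 0.23, SE). Mrpl32 itself was at 18.4 and 11.1 CPM (WT) and at 17.9 and 11 CPM (p53R248W/+). Its value was 5.74e-04 ± 0.56 (SE), from -0.43 to 0.41 with single libraries left out. In both genotypes replicate 1 was the higher library.

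The 15 translation factors and helpers had a median of -0.25, with 9 negative, 6 positive and both mutant libraries below WT for 6 and above for 1 (16.6% and 16.9% of all tested genes). The median was -0.29 to -0.18 with each library left out. Oxa1l, the inner membrane insertase that binds the ribosome, was at 123 and 106 CPM in the WT libraries against 75.1 and 96.7 CPM in the mutants (-0.42 ± 0.25, SE), and the elongation factor Gfm1 at 58.9 and 73.2 CPM against 44.6 and 51.5 CPM (-0.47 ± 0.31, SE). Letm1, an inner membrane protein that binds the mitoribosome, was at 42.5 and 59.9 CPM against 30.6 and 22.3 CPM (-0.94 ± 0.38, SE; edgeR quasi-likelihood, adjusted p = 0.824). Mief1, whose messenger also encodes a small assembly factor, lay the other way at 42.5 and 41.8 CPM against 65.2 and 65.9 CPM (0.64 ± 0.32, SE).

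The 20 genes that charge mitochondrial tRNAs had a median of 0.32, with 15 positive and 5 negative. Their summed level overlapped between the genotypes, at 2160 and 1090 CPM (WT) and at 1677 and 1242 CPM (p53R248W/+). Both mutant libraries were above WT for 7 and below for 0 (16.9% and 16.6% of all tested genes), and the median was 0.28 to 0.38 with each library left out. Gatb, a subunit of the amidotransferase that completes glutamine charging, was at 6.97 and 1.96 CPM (WT) and at 9.24 and 18.4 CPM (p53R248W/+) (1.58 ± 0.76, SE), and Nars2, the asparagine enzyme, at 42.1 and 35.3 CPM against 53.9 and 53.3 CPM (0.47 ± 0.34, SE). None of the 20 had an unadjusted p under 0.05.

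**Figure D5:**
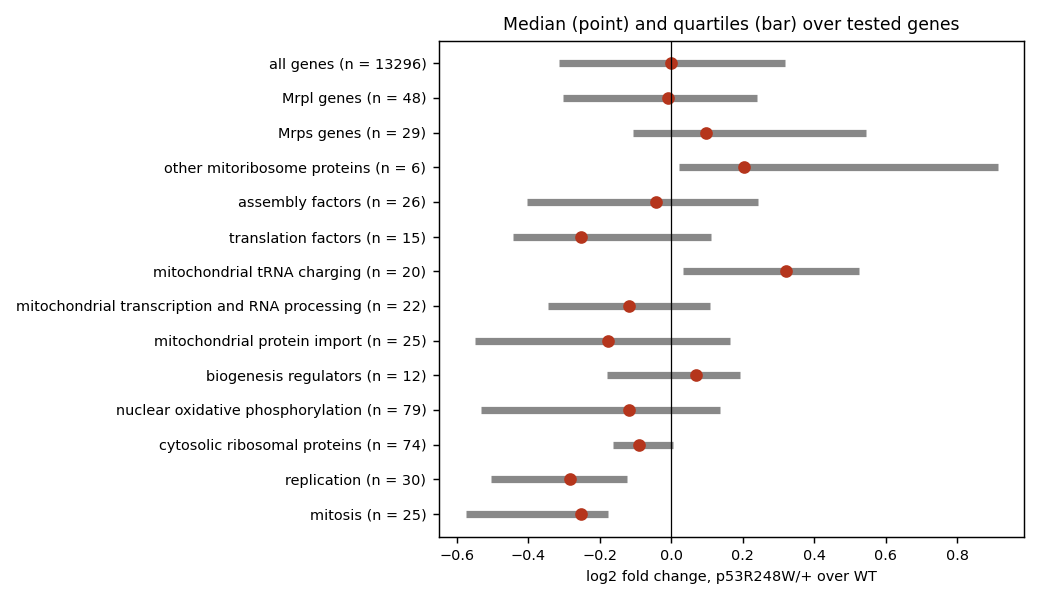
Median (points) and quartiles (bars) of the log2 fold change of p53R248W/+ over WT over the tested genes of each list, with the number of genes in brackets. The Mrpl genes lie at -0.01, the Mrps genes at 0.10, the tRNA charging genes at 0.32 and the translation factors at -0.25, and the median of all genes is -8.81e-05.

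The known transcriptional regulators were present in all libraries. Nrf1 was at 52.4 and 46.6 CPM in the WT libraries against 53.6 and 59.6 CPM in the mutants, Gabpa at 232 and 250 CPM against 231 and 310 CPM, and Yy1 at 88.3 and 85.9 CPM against 109 and 105 CPM. Their log2 fold changes were 0.19 ± 0.32, 0.16 ± 0.19 and 0.30 ± 0.25 (SE), and none passed. Myc, a known activator of ribosome and mitochondrial genes, was at 608 and 437 CPM against 538 and 505 CPM. The members whose promoters hold the NRF1 core had a median log2 fold change of -0.22 over 7 genes, those with the ETS core 0.07 over 24 genes, and those with neither 0.04 over 40 genes. With single libraries left out these medians ran from -0.43 to 0.04, from 0.02 to 0.20 and from -0.14 to 0.19. That of the NRF1 genes was 0.04 with WT replicate 1 left out and 0.0064 without p53R248W/+ replicate 2, and that of the genes with neither was -0.14 without p53R248W/+ replicate 1.

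Summed levels of cell cycle genes ranged more widely over the libraries than those of the members. The 25 mitosis genes summed to 2341 and 3670 CPM (WT) and to 1830 and 3436 CPM (p53R248W/+), and the 30 replication genes to 2734 and 2781 CPM against 1880 and 2621 CPM. Both sums were lowest in p53R248W/+ replicate 1, the library with the highest summed level of the members (1509 CPM, against 1422 and 1458 CPM in WT and 1381 CPM in p53R248W/+ replicate 2). The nuclear oxidative phosphorylation genes summed to 4872 and 4458 CPM in the WT libraries against 4018 and 3956 CPM in the mutants, with a median log2 fold change of -0.12 and 49 of 79 tested genes negative. That median was -0.07 with WT replicate 1 left out and -0.23 without p53R248W/+ replicate 2. The cytosolic ribosomal protein genes had a median of -0.09, or 0.03 without WT replicate 1. The 25 genes of mitochondrial protein import had a median of -0.18, with 18 negative, and the 22 of mitochondrial transcription and RNA processing of -0.12, or 0.03 without WT replicate 2. The part of cycling in the members' values was not tested.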

How the data were processed

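The authors deposited raw read counts per gene symbol for 4 libraries. The submitters' processing notes list STAR (2.7.10a), Subread (2.0.3) with its counter featureCounts, edgeR (3.40.2), FastQC (0.11.5) and the build mm10. Whether these versions made the deposited counts could not be checked here. Strand setting and treatment of multi-mapping reads are not given in the sources used here, so members that share exon bases with another gene (10 of 77) or have processed copies elsewhere are uncertain. Exon lengths, an other kind of value used for RPKM, came with the deposited table.

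Genes were filtered with filterByExpr (minimum count 10, minimum total 15) and scaled by TMM. Genotypes were compared over all 13296 genes with edgeR 4.0.16 (glmQLFit with robust=TRUE and legacy=FALSE, glmQLFTest; R 4.3.3) and Benjamini-Hochberg adjustment at 0.05. SEs are the fold change over the root of F. The 3-count floor is 0.202 to 0.248 CPM and covers counting error only. The script was checked on simulated data. Alternatives were median-ratio and total-count scaling, DESeq2 1.42.0, limma-voom 3.58.1, no filter, leaving out each library in turn, a block for the replicate number, and a stricter filter (a mean of at least 5 CPM, and 1 CPM or more in 2 libraries). The legacy edgeR method was added after the data were seen, and legacy=FALSE was set as the main method after both had been run and because it gave the number of genes under an unadjusted p of 0.05 that an earlier processing of these data had.

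Named members were the 12 smallest p-values among members whose genotypes did not overlap and whose mean reached 5 CPM, the 5 highest and 5 lowest in RPKM, the Mrps18 paralogs and the 3 with the largest replicate difference. Others were named by role, after their values were seen. The members and lists were chosen with earlier results of these data known. Of the list entries, Ly6g was not matched.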

Additional observations from a re-analysis of the deposited data

How the results depend on the processing

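No member was called under any alternative run. Over the whole table DESeq2 called 6 genes, and leaving out single libraries gave 0 to 1. The members' median log2 fold change of 0.05 ran from -0.071 without p53R248W/+ replicate 1 to 0.16 without WT replicate 2. The median of all genes tested was -0.040 and 0.056 in the same fits. With a replicate block the members' median was 0.05, and no call changed. The labels do not say whether the numbers pair libraries. The deviations of same-numbered libraries correlated at 0.0049 across all tested genes and at 0.093 across the members, which cannot settle it. The value of Mrpl53 was 0.15 in limma-voom. With libraries left out in turn, values given above that turned ran from -1.08 to 1.57 for Mrpl53, -1.01 to 0.88 for Mrpl1, -0.36 to 1.18 for Mrpl37, -0.84 to 0.29 for Mrpl33, -0.071 to 0.32 for Mrpl30, -0.80 to 0.038 for Mrps18b, -0.43 to 0.41 for Mrpl32, -0.34 to 0.18 for Mrps25 and -0.69 to 0.11 for Mrps11. In all, 38 of the 77 members kept their sign in each of these 4 fits, 25 positive and 13 negative. In the main fit 43 members were positive and 34 negative. The share over all tested genes was not computed, so the count has no background. The fits share libraries with the main fit, so a kept sign is partly built in. The cause of the changes in sign was not tested, and each of these fits also used fewer libraries. The library left alone in its genotype was assumed to vary like the others. The 5 highest members by CPM and by RPKM shared 0 genes. The stricter filter kept 70 members. Depth limits the lowest members most: 12 had under 50 reads in at least 1 library.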
